A study of Zea mays with 12 samples.

Results

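The sterol synthesis genes described here are Zm00001d015239 (cycloartenol synthase 1), Zm00001d013035 (sterol methyltransferase 1) and Zm00001d040196 (C-8,7 sterol isomerase), 3 of the 42976 features in the maize root tip count table. They were followed in 12 RNA sequencing libraries of the inbred line FR697, with 3 libraries in each of 4 groups. WS24 and WS48 are tips of primary roots in vermiculite at −1.6 MPa (water-stressed), taken 24 h and 48 h after transplanting, and WW24 and WW48 are tips at −0.02 MPa (well-watered) of the same times. All seedlings grew in the dark and received no further water after transplanting, each library came from pooled root tips, and a stressed tip measured 7 mm where a well-watered tip measured 12 mm, so that the length of the piece and the treatment cannot be told apart. In such bulk tissue, fewer cells of a type and less RNA per cell cannot be told apart either.

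The members were chosen by their measured change at 48 h: each differed in WS48 from both WW48 and WW24, and they had the strongest evidence among 5 genes described as cycloartenol synthases, sterol methyltransferases or a sterol isomerase. Values from WS48, WW48 and WW24 are therefore given as a description with no test. The comparison of WS24 with WW24 was tested, because its stressed libraries played no part in the choice. Its WW24 libraries did, so this test is not fully independent of the choice. WW24 matches WS24 in age only, as the study collected no well-watered control for the development of the 24 h stressed roots. Stress and a difference in root length or development therefore cannot be told apart in this comparison.

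Plant sterols are membrane lipids that set the fluidity and order of the plasma membrane, and one of them, campesterol, is the precursor of the brassinosteroid growth hormones. Cycloartenol synthase closes the rings of oxidosqualene, the first step that belongs to sterols alone in plants. Sterol methyltransferase 1 then adds a methyl group to the side chain of cycloartenol. Later, after the CYP51 demethylase has acted, the C-8,7 sterol isomerase (HYDRA1 in Arabidopsis) moves a double bond within the ring system. Sterol methyltransferase 2 adds a second methyl group on the way to sitosterol, and CYP710A1 of Arabidopsis desaturates the side chain to give stigmasterol.

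After 24 h of stress the transcripts of both early members were more abundant and that of the isomerase was less abundant. Copies of these enzymes without a description were not looked at, so the levels stand for single genes, not whole steps. Relative to WW24, cycloartenol synthase 1 rose 2.97-fold and sterol methyltransferase 1 rose 2.22-fold in WS24, while the isomerase stood at 0.265 times its WW24 abundance. All 3 were called in WS24 vs WW24 (threshold 0.05 on the adjusted p over 26746 features, and a doubling or halving, 1 on the log2 scale), a comparison in which 9.27% of features were called increased and 5.64% decreased. For each of the 3 genes, the 6 stressed libraries lay apart from the 6 well-watered libraries without overlap, which the choice of members largely fixes for WS48 and its controls. The share of all features that lay apart in this way was not counted. WS24 and WW24 also lay apart for all 30 P450 genes described below, so a gap at 24 h is not particular to these 3 genes. Those genes too were drawn from transcripts that differed at 48 h, so they give no measure of the share over all features.

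**Figure D1:**
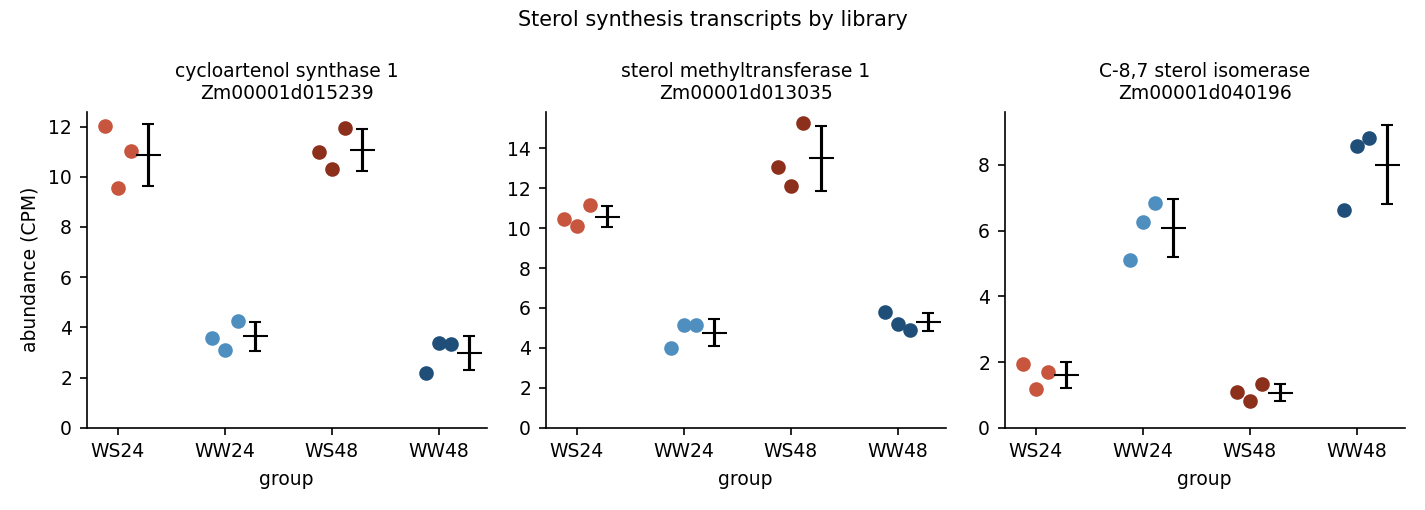
Abundance of the 3 sterol synthesis transcripts in CPM (vertical axis, starting at 0) in each library of WS24, WW24, WS48 and WW48 (horizontal axis). Points are libraries in order of replicate number, and the bar beside them is the mean ± SD (n = 3). The stressed groups lie above the well-watered groups for cycloartenol synthase 1 and sterol methyltransferase 1, and below them for the isomerase.

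Cycloartenol synthase 1 (Zm00001d015239) had 543, 450 and 451 read counts in the WS24 libraries, against 168, 123 and 186 in the WW24 libraries. Scaled by the adjusted library size to CPM, these were 12.01, 9.55 and 11.03 in WS24 and 3.58, 3.11 and 4.26 in WW24. The lowest WS24 library thus lay well above the highest WW24 library. The means were 10.9 ± 1.24 CPM in WS24 and 3.65 ± 0.577 CPM in WW24 (SD, n = 3 each), a log2 change of 1.57 (approximate SE 0.17, 95% interval 1.23 to 1.91, adjusted p = 1.42e-05 by edgeR's quasi-likelihood test). Among all features tested, 5.85% increased by more than this with an adjusted p that passed.

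At 48 h the same gene stood at 10.98, 10.3 and 11.96 CPM in WS48, against 2.199, 3.39 and 3.35 CPM in WW48. WW48 replicate 1 was the lowest of all 12 libraries. The mean was 11.1 ± 0.839 CPM in WS48 and 2.98 ± 0.676 CPM in WW48, with log2 changes of 1.90 against WW48 and 1.60 against WW24. In order of level, WS48 and WS24 came first and did not differ beyond their spread (log2 difference 0.03, SE 0.17), and WW24 and WW48 followed, whose libraries also overlapped (WW48 minus WW24 −0.30, SE 0.18).

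Sterol methyltransferase 1 (Zm00001d013035) had 472, 477 and 455 counts in WS24, against 188, 203 and 225 in WW24. In CPM these were 10.4, 10.1 and 11.1 in WS24 and 4.0, 5.14 and 5.15 in WW24, again with a wide gap between the groups. The WS24 libraries were the most even of any group for the 3 genes, with a coefficient of variation of 4.90% where counting alone gives 4.62%. The log2 change was 1.15 (SE 0.13, interval 0.89 to 1.41, adjusted p = 1.77e-05 by edgeR), from means of 10.6 ± 0.517 CPM in WS24 and 4.76 ± 0.662 CPM in WW24. A larger increase that passed the adjusted p was found for 8.11% of features, so the rise was close to the least that a call allows.

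In the 48 h groups sterol methyltransferase 1 stood at 13.1, 12.1 and 15.3 CPM in WS48, against 5.81, 5.21 and 4.92 CPM in WW48. The description gives log2 changes of 1.34 against WW48 and 1.5 against WW24. Unlike cycloartenol synthase 1, its stressed groups did not overlap, and WS48 was above WS24 by 0.35 on the log2 scale (SE 0.13, WS48 mean 13.5 ± 1.62 CPM). The well-watered groups overlapped, at 5.31 ± 0.454 CPM in WW48 and 4.76 ± 0.662 CPM in WW24.

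The C-8,7 sterol isomerase (Zm00001d040196) had 88, 56 and 69 counts in WS24, against 240, 247 and 299 in WW24. In CPM these were 1.95, 1.19 and 1.69 in WS24 and 5.11, 6.25 and 6.85 in WW24. Even the highest stressed library was below the lowest well-watered one. The isomerase fell by 1.92 on the log2 scale (SE 0.22, interval −2.36 to −1.48, adjusted p = 2.22e-05 by edgeR), from means of 1.61 ± 0.385 CPM in WS24 and 6.07 ± 0.885 CPM in WW24. Only 2.13% of features decreased by more with an adjusted p that passed.

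The isomerase also had the lowest counts of the 3 genes under stress, which limits the precision of its level there. WS48 libraries held 47, 38 and 64 counts, or 1.08, 0.808 and 1.32 CPM, against 6.62, 8.57 and 8.81 CPM in WW48. Its coefficient of variation was 24.0% in WS24 and 24.1% in WS48, where counting alone gives 11.9% and 14.2%. As a description, it stood lower in WS48 by log2 changes of −2.90 against WW48 and −2.50 against WW24, and WS48 minus WS24 was −0.58 (SE 0.24), with libraries of those groups overlapping. The order of its levels was WW48, WW24, WS24 and WS48, and neighbours overlapped in the first and in the last pair.

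Because the 3 genes were counted in the same libraries, ratios of their counts need no scaling between libraries, although a single ratio also carries the gene lengths and only its change between groups can be read. The ratio of cycloartenol synthase 1 to isomerase counts was 6.17, 8.04 and 6.54 in WS24, against 0.700, 0.498 and 0.622 in WW24. The mean ratio was thus 11.4 times as high in WS24. At 48 h the ratio was 10.2, 12.7 and 9.03 in WS48, against 0.332, 0.395 and 0.381 in WW48. The lowest ratio of a WS48 library exceeded the highest of a WS24 library. The ratio of sterol methyltransferase 1 to the isomerase behaved alike, at 5.36 to 8.52 in WS24, 0.753 to 0.822 in WW24, 11.5 to 15 in WS48 and 0.558 to 0.878 in WW48. Both increased genes kept a narrower ratio to each other, with means of 1.03 ± 0.108 in WS24, 0.775 ± 0.151 in WW24, 0.824 ± 0.0358 in WS48 and 0.570 ± 0.167 in WW48. These ratios were not tested. They restate the changes of the single genes given above. The choice of members by their direction in WS48 largely fixes the gap between WS48 and its controls. WS48 served for the choice and WS24 did not, so the higher ratios in WS48 are not independent of it either.

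**Figure D2:**
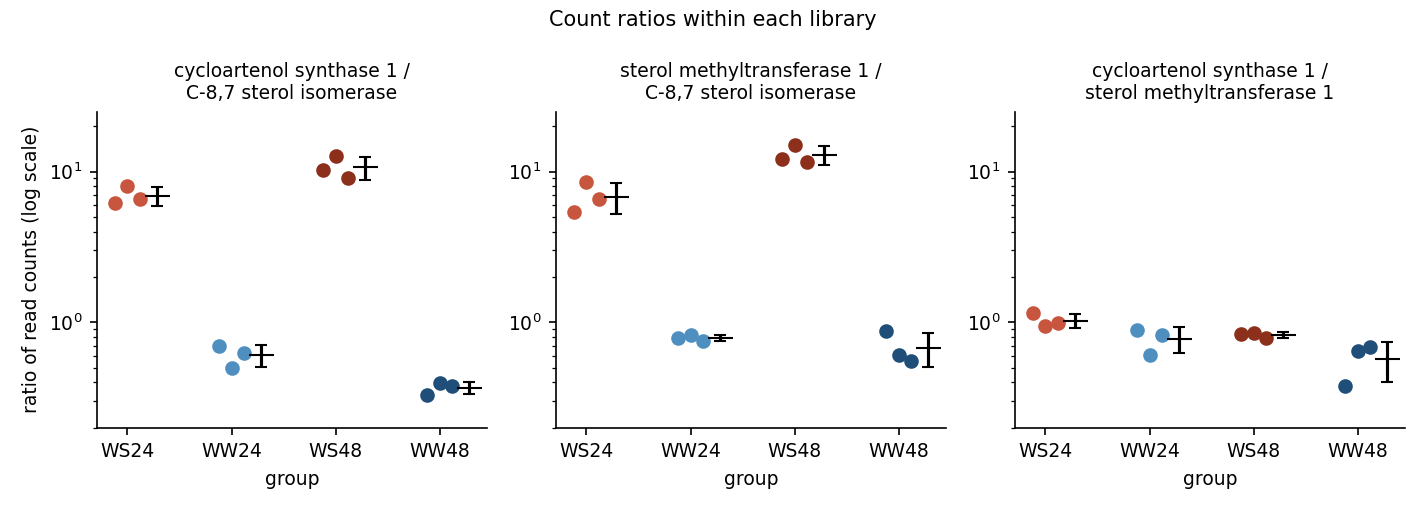
Ratios of read counts between pairs of the 3 genes within each library (vertical axis, log scale) by group (horizontal axis), with points for libraries and bars for the mean ± SD (n = 3). Ratios to the isomerase are 5.36 to 15 in stressed libraries and below 1 in well-watered ones, while the ratio of cycloartenol synthase 1 to sterol methyltransferase 1 stays between 0.379 and 1.15 in all 12 libraries. The choice of members largely fixes the gap between WS48 and its controls.

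The other sterol synthesis genes that carry a description were considered next. Of the 6 genes in that list, 3 were called increased, 2 were called decreased and 1 was not called in WS24 vs WW24. In that comparison 9.27% of all features were called increased and 5.64% decreased. The median log2 change of the list was 0.08, where that of all features was 0.01. In WS48 relative to both controls, 3 of the 6 increased and 3 decreased, beside 5.53% and 4.03% of tested features. The described genes of the list come from the study's own set of transcripts that differed in that way, so a high share of calls at 24 h is no independent evidence about the pathway.

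Just outside the choice lay a second gene described as cycloartenol synthase 1 (Zm00001d014695) and sterol methyltransferase 2 (Zm00001d027548). The second cycloartenol synthase gene stood at 17, 19.1 and 14.5 CPM in WS24, against 1.75, 2.38 and 2.61 CPM in WW24. By the same edgeR test this gene increased, with a log2 value of 2.91 (SE 0.29) and an adjusted p of 5.83e-06. It differed from Zm00001d015239 among the well-watered roots, where it was at 7.31, 6.80 and 3.31 CPM in WW48, all above WW24 (log2 difference 1.38, SE 0.29). Stressed libraries of both times overlapped. For genes of the same description, reads may be shared between similar copies, so single levels are uncertain.

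Sterol methyltransferase 2 changed in the opposite sense to sterol methyltransferase 1. It stood at 67.1, 68.2 and 89.6 CPM in WS24, against 151, 139 and 155 CPM in WW24. Its log2 change of −0.99 (SE 0.12, adjusted p = 3.39e-05) passed the adjusted p and missed the fold threshold by little. In the 48 h description it was at −1.02 against WW48 and −1.09 against WW24. The count ratio of sterol methyltransferase 1 to sterol methyltransferase 2 was 0.124 to 0.156 in WS24, 0.0264 to 0.0369 in WW24, 0.166 to 0.246 in WS48 and 0.0328 to 0.0477 in WW48, a mean 4.43 times as high in WS24 as in WW24.

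The gene described as CYP710A1 (Zm00001d039384) stood at 38.7, 40.6 and 53.3 CPM in WS24, against 140, 139 and 153 CPM in WW24. It fell by 1.70 on the log2 scale (SE 0.11, adjusted p = 1.98e-07). Its libraries overlapped between the times of each treatment, at 44.2 ± 7.95 CPM in WS24, 144 ± 7.99 CPM in WW24, 43.8 ± 3.18 CPM in WS48 and 136 ± 11.6 CPM in WW48.

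One further feature could be placed in the pathway from the count table itself, where it carries labels of similarity to CYP51 proteins of wheat, sorghum and Arabidopsis. The origin of this feature is not described in the sources used here, and gene models without a description were not searched for CYP51. The feature was picked for its label and by no measured value, so its comparisons were open to testing. It stood at 55.98, 54.5 and 66.9 CPM in WS24, against 50.3, 47.3 and 48.7 CPM in WW24. The log2 changes were 0.28 in WS24 vs WW24 (SE 0.08, adjusted p = 0.0150) and 0.30 in WS48 vs WW48 (SE 0.08, adjusted p = 0.0101), both well under the fold threshold, with intervals of 0.12 to 0.44 and 0.14 to 0.46. Against WW24, WS48 differed by 0.20 (interval 0.03 to 0.35, adjusted p = 0.0769). The stress effect at 48 h minus that at 24 h was 0.03 (adjusted p = 0.951). Without WS24 replicate 3 the 24 h value was 0.19 and its adjusted p 0.0546, and without WW24 replicate 2 it was 0.26 with an adjusted p of 0.0553, by the same edgeR test.

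**Figure D3:**
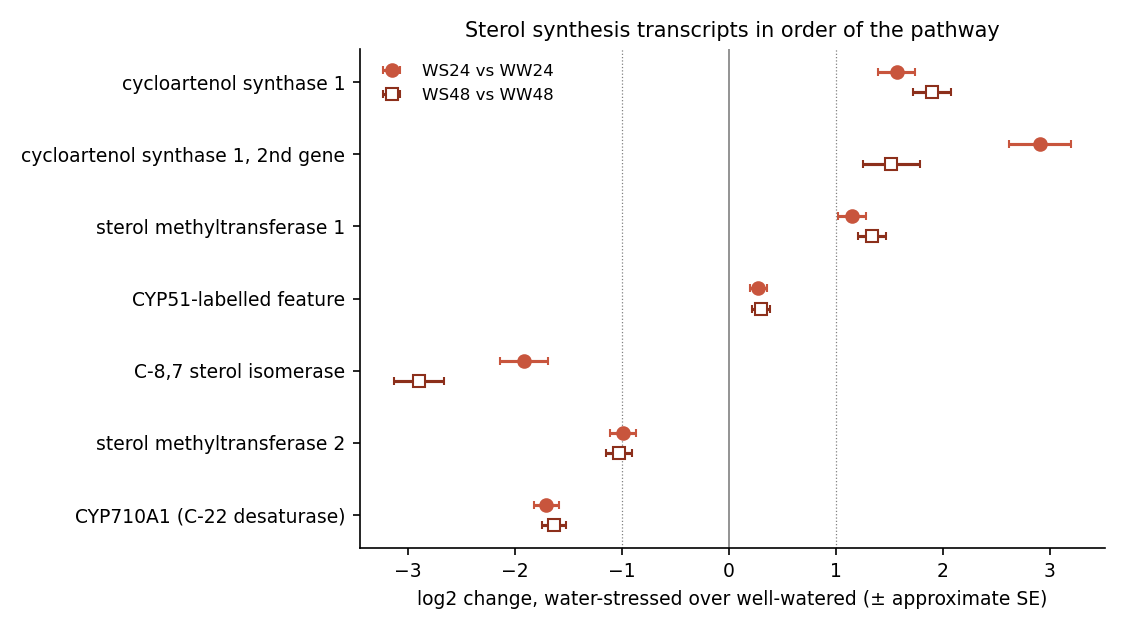
Log2 change of sterol synthesis transcripts (horizontal axis, bars are ± approximate SE) in the order in which their enzymes act (vertical axis, first step at the top). Filled circles are WS24 vs WW24 and open squares are WS48 vs WW48, which served to choose all genes but the CYP51-labelled feature. The cycloartenol synthase genes and sterol methyltransferase 1 lie above 1, the CYP51-labelled feature at 0.28 and 0.30, and the isomerase, sterol methyltransferase 2 and CYP710A1 between −0.99 and −2.90. Steps without a described gene are not shown, so no trend along the whole pathway can be read from the figure.

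Among described genes that supply isoprenoid precursors, 3 of 3 were called increased in WS24 vs WW24, where 9.27% of all features were called increased and 5.64% decreased. All 3 are described because they were in the study's set of transcripts that differed at 48 h, and all 3 also increased in WS48 relative to both controls, so the count says nothing about the pathway as a whole. Farnesyl diphosphate synthase 1 (Zm00001d011673) makes the unit from which squalene is built, and stood at 30.2 to 48.4 CPM in WS24, against 0.575 to 1.29 CPM in WW24 (log2 change 5.39, SE 0.26, adjusted p = 1.21e-08). Deoxyxylulose-5-phosphate synthase (Zm00001d019060), the first enzyme of the plastid route, reached 51.9 ± 5.26 CPM in WS24, against 5.22 ± 2.11 CPM in WW24. Geranylgeranyl pyrophosphate synthase 1 (Zm00001d021929), whose product serves carotenoids and chlorophyll, rose by 1.39 (SE 0.37, adjusted p = 0.00857), and by 2.06 without WW24 replicate 3, the highest of its group at 3.00 CPM. No described gene of the mevalonate route or for squalene was in the list.

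Of 4 genes with a link to steroids or brassinosteroids, 3 increased and 1 decreased in WS24, beside 9.27% and 5.64% of all features. They come from the same 48 h set, in which the same counts rose and fell in WS48, so their calls at 24 h are no independent evidence. CYP90D1 (Zm00001d039453), a hydroxylase of brassinosteroid synthesis in Arabidopsis, was at 13.03 ± 0.894 CPM in WS24, against 4.24 ± 0.533 CPM in WW24, a log2 change of 1.62 (SE 0.15, adjusted p = 2.95e-06). A gene of the 3-oxo-5-alpha-steroid 4-dehydrogenase family (Zm00001d018847) rose by 2.87 (SE 0.29). Hydroxysteroid dehydrogenase 1 (Zm00001d007345) had 1166 counts over WS24 and only 8 over WW24, so the size of its log2 change of 7.07 is uncertain, and it was 7.85 without WW24 replicate 3. The brassinosteroid-responsive RING-H2 gene (Zm00001d017612) fell by 1.74 on the log2 scale (SE 0.21, adjusted p = 3.16e-05).

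The study's pathway table also places 30 cytochrome P450 genes under steroid biosynthesis, although members of these families act in many other pathways. In WS24 vs WW24, 17 of them were called increased, 12 decreased and 1 was not called, with a median log2 change of 1.73, while 9.27% of all features increased and 5.64% decreased. These genes too were drawn from transcripts that differed at 48 h, where 17 increased and 12 decreased in WS48 relative to both controls, so the high share of calls at 24 h was not independent of their selection. Those with the smallest adjusted p were the subfamily 86B genes Zm00001d013979 (log2 change 8.04, from 8 counts over WW24) and Zm00001d032651 (4.54, SE 0.27), a subfamily whose Arabidopsis member hydroxylates fatty acids for suberin, and Zm00001d005823, which fell by 3.28 (SE 0.18). Of 7 genes of the terpenoid cyclase superfamily 5 increased and 2 decreased at 24 h, against the same shares of all features and with the same selection. In WS48 relative to both controls 3 of the 7 were called increased and 2 decreased. Zm00001d004509 stood at 50.9 ± 3.80 CPM in WS24, against 240 ± 45.8 CPM in WW24, whereas Zm00001d024210 and Zm00001d024211 were uneven in WS24, from 3.08 to 41.9 CPM and from 2.76 to 35.2 CPM, against at most 0.362 CPM in WW24. Their log2 changes were 6.49 (SE 1.23, adjusted p = 0.000972 by edgeR) for Zm00001d024210 and 6.46 (SE 1.40, adjusted p = 0.00341) for Zm00001d024211. Both calls were lost with limma-voom, at adjusted p of 0.168 and 0.190, and without WS24 replicate 1 the edgeR values were 5.72 for Zm00001d024210 and 5.68 for Zm00001d024211, the value of which was 7.15 without WW24 replicate 1.

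**Figure D4:**
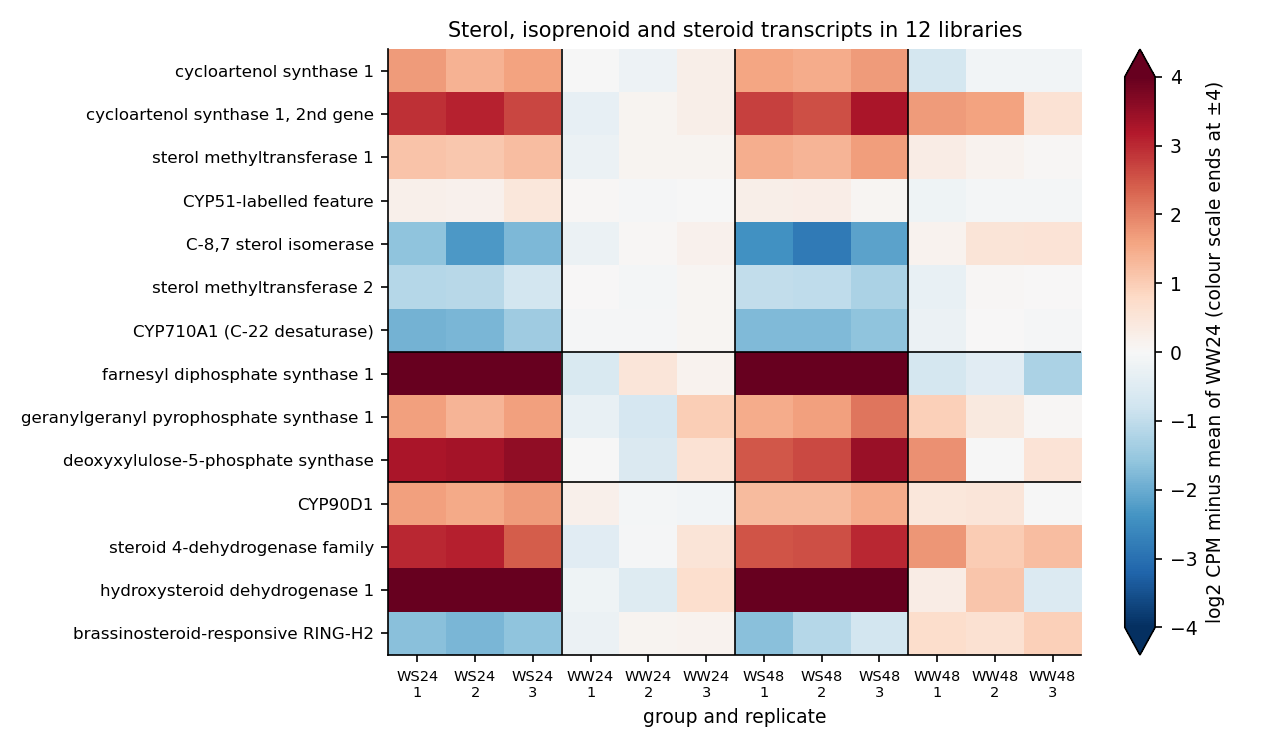
Log2 CPM of 14 transcripts (rows) in the 12 libraries (columns, 3 replicates per group), each minus the gene's mean in WW24; the colour scale ends at ±4 and 2 genes pass its upper end. Rows from the top are sterol synthesis, isoprenoid supply, and steroid and brassinosteroid genes. The stressed libraries of both times share their colours. The second cycloartenol synthase gene and the steroid 4-dehydrogenase family gene are also above every WW24 library in all 3 WW48 libraries. So is the brassinosteroid-responsive RING-H2 gene, which is lower under stress.

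Across the 12 libraries the log2 CPM of cycloartenol synthase 1 and sterol methyltransferase 1 had a Pearson correlation of 0.92, and those of each with the isomerase were −0.92 and −0.93. These values describe 12 points that fall into stressed and well-watered groups, and many other features followed the same contrast. A total of 313, 192 and 281 of 19561 features correlated above 0.95 with cycloartenol synthase 1, sterol methyltransferase 1 and the isomerase. Among described genes, the pattern of cycloartenol synthase 1 was most like those of lsd one like 1 (Zm00001d049525), a cold-regulated thylakoid membrane protein gene (Zm00001d039039) and P5CS2 (Zm00001d012391, an enzyme of proline synthesis), each at r = 0.987. Sterol methyltransferase 1 was most like a DUF3755 protein gene (Zm00001d051180, 0.983), a gene of the fatty acid hydroxylase superfamily (Zm00001d014055, 0.982) and nuclear factor Y subunit A9 (Zm00001d033602, 0.982). The isomerase was most like a DUF506 protein gene (Zm00001d043444), serine carboxypeptidase-like 40 (Zm00001d007073) and a protein kinase gene (Zm00001d026126), each at 0.985.

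The libraries held 40005384 to 54863708 gene counts each. WS24 replicate 3 stood apart in its share of reads not aligned, 23.1%, where the others had 12.7 to 15.01%. Without it the log2 changes in WS24 vs WW24 were 1.57 for cycloartenol synthase 1, 1.12 for sterol methyltransferase 1 and −1.95 for the isomerase. Other described transcripts moved with the treatment. Of 5 genes listed under cell division by their description alone, CYCLIN D4;1, cyclin d5;1 and histone H1-3 were called increased at 24 h. The histone variant H2AX and origin recognition complex protein 6 were called decreased. Over all features, 9.27% were called increased and 5.64% decreased in that comparison. The summed level of the 5 listed genes was 134 to 151 CPM in WS24, 90.4 to 99.0 CPM in WW24, 116 to 120 CPM in WS48 and 87.9 to 107 CPM in WW48. Its direction rests on histone H1-3 alone, at 85.2 to 96.5 CPM in WS24 and 5.85 to 17.3 CPM in WW24. Without that gene the other 4 summed to 49 to 54.5 CPM in WS24, 81.7 to 88.5 CPM in WW24, 50.4 to 54.8 CPM in WS48 and 79.7 to 96.5 CPM in WW48, which is lower under stress. The root hair expansin A7 was at 6.02 to 13 CPM in WS24 and 0.573 to 0.962 CPM in WW24. Of 2 photosynthesis genes, light-harvesting chlorophyll B-binding protein 3 was at 0.685 to 1.23 CPM in WS24 and 3.60 to 4.03 CPM in WW24. Photosystem II subunit O-2 did not pass the count filter, and reached 4.77 CPM in WW24 replicate 1 and 3.84 CPM in WW48 replicate 2 while the other 10 libraries held at most 0.0442 CPM. No marker was at 0 in every library of a group, all had been described among transcripts that differed at 48 h, and their part in the sterol results was not tested. The descriptions used here name no defining marker of the root cap or the meristem, so the labelled tissue was not checked further.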

How the data were processed

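Unnormalized read counts were deposited for each gene. Strand-specific libraries were sequenced with paired ends, and reads were aligned with HISAT2 and counted over exons with HTSeq (versions 1.0 and 0.6.1 in the submitters' processing notes, build B73 RefGen_v4; the study's methods add an FR697 assembly). The sources used here do not give the strand setting, so reads of overlapping genes are uncertain. The authors also deposited TMM-normalized values rounded to whole numbers, treated as a score and not used.

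Groups came from sample titles. Counts of features passing filterByExpr (minimum count 10) were scaled by TMM (factors 0.926 to 1.06) and fitted over all 12 libraries in edgeR 4.0.16 (R 4.3.3), without the 4 summary rows of the counter, which held 19.3 to 29.3% of all counts. The quasi-likelihood F-test was used with Benjamini-Hochberg adjustment over 26746 features. The SE of a log2 change is its size over the square root of F, and intervals are 1.96 SE either side. The procedure was also run on simulated data, and no result given here rests on that run. Replicates are independent experiments per the study, and no 2 replicates agreed within sampling noise (chi-square per feature 5.48 to 34.52).

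Members and lists were chosen with earlier results of these data known, and the CYP51-labelled feature after the lists. Named genes were the 3 members, the sterol, isoprenoid and steroid lists, the 3 P450 and 3 cyclase genes with the smallest adjusted p at 24 h, and the 3 described genes most correlated with each member (mean log2 CPM of at least 1). Descriptions come from the study's supplementary tables, whose measured values were not used. The RefSeq gene table matched 0 of the listed genes. Alternatives were other scalings and filters, DESeq2 1.42.0, limma-voom (limma 3.58.1), a replicate block, a fit of only the groups compared, and leaving out each library.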

Additional observations from a re-analysis of the deposited data

How the results depend on the processing

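The 3 members kept their direction and their call in WS24 vs WW24 under all 21 alternatives, with log2 changes of 1.47 to 1.71 for cycloartenol synthase 1, 1.04 to 1.29 for sterol methyltransferase 1 and −2.08 to −1.73 for the isomerase, and adjusted p-values of at most 0.000261. Their 48 h values moved by less than the spread between replicates. Increased transcripts in WS24 vs WW24 numbered 1578 with the filter of over 3 CPM in 1 library, against 2480, and increased transcripts in WS48 relative to both controls 970, against 1478, where that filter left 20311 features. Leaving out a library gave 2313 to 2647 increased and 1379 to 1529 decreased transcripts at 24 h. Sterol methyltransferase 2, not called at −0.99, passed the fold threshold with limma-voom (−1.0), without WW24 replicate 2 (−1.03) and without WS24 replicate 3 (−1.13). The terpenoid cyclase genes Zm00001d024210 and Zm00001d024211 lost their calls with limma-voom. With no scaling factors the median of all features in WS24 vs WW24 was 0.15, against 0.01, and the CYP51-labelled feature was at 0.41. Same-numbered libraries did not deviate together (correlations −0.50 to 0.11, 1 of 18 above 0.1), so the numbers pair nothing. Differently numbered libraries of WW48 and WS48 had correlations from −0.34 to 0.48, and no pairing across numbers was modelled. The replicate block gave 2420 increased and 1460 decreased transcripts and log2 changes of 1.58, 1.15 and −1.91 for the 3 members, in the order above. Depth limits the isomerase most, with 38 to 88 counts per stressed library.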
